A study of Mus musculus with 10 samples.

Results

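Long-chain acyl-CoA synthetases (the ACSL family) and acyl-CoA thioesterases (the ACOT family) act on fatty acids in opposite directions, and 10 of their genes were followed here in interscapular brown adipose tissue (iBAT). The members were the synthetases Acsl1, Acsl3, Acsl4, Acsl5 and Acsl6 and the thioesterases Acot1, Acot2, Acot3, Acot11 and Acot13, 10 of the 41249 gene identifiers in the count tables. They were chosen by name, with the measured differences in normalised counts, as CPM, between Axl KO and WT mice in view, so those differences are given as a description, with no test and no p-value for a member. CPM, a count relative to the total of its library, were scaled with the TMM factors of edgeR, and a gene entered the fit when its mean over all mice was above 1 CPM, which kept 13739 genes and 8 of the 10 members. Acsl6 and Acot3 lay below that limit.

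Whole iBAT depots of male mice on a high-fat diet (HFD) were profiled by bulk RNA sequencing to ask how loss of AXL, a receptor tyrosine kinase of the TAM family, changes the tissue. The 2 groups were 5 whole-body constitutive Axl KO mice and 5 WT littermates, and every mouse, WT mice included, received HFD from an age of 6 to 8 weeks for 24 weeks. The KO allele is of the knockout-first type, with a splice-trapping LacZ cassette inside the Axl gene, so it affects all cell types throughout life, and 2 embryonic stem cell clones gave rise to the line. Total counts per mouse were between 5431014 and 9580215. Axl stood at 1.57 ± 0.646 CPM in Axl KO and 43.1 ± 5.86 CPM in WT mice (mean ± SD, n = 5 each), a log2 fold change of -4.77 (SE 0.20, edgeR quasi-likelihood test with Benjamini-Hochberg adjustment, adjusted p = 1.10e-07).

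ACSL enzymes join a free fatty acid to coenzyme A at the expense of ATP, which commits it to oxidation, to triglyceride or phospholipid synthesis, or to elongation. ACOT enzymes cut the same bond and release the free acid and coenzyme A. In brown adipocytes both steps matter for heat production, because acyl-CoA feeds mitochondrial oxidation while free fatty acids bind and activate UCP1. Members differ in where they sit: ACSL1 is the main adipocyte isoform, ACSL3 is linked to the endoplasmic reticulum and lipid droplets, ACSL4 prefers arachidonic acid, ACSL5 is found on mitochondria and the endoplasmic reticulum, and ACSL6 is a brain isoform. ACOT1 is cytosolic, ACOT2 and ACOT13 are mitochondrial, ACOT3 is peroxisomal, and ACOT11 (also called BFIT, brown fat inducible thioesterase) is known for its expression in brown fat.

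The 10 brown adipocyte markers were all detected. Their sums were 8286 to 11510 CPM in Axl KO and 6405 to 8551 CPM in WT mice. The sums of 5 white adipocyte markers were 192 to 609 CPM in Axl KO and 233 to 554 CPM in WT mice. Of these 5 genes 3 were above the 1 CPM limit, and Hoxc9, a white depot marker, had 0 counts in every mouse. Most of the sum was Lep, with a mean of 2663 counts per mouse against 109.2 for Retn and 20.2 for Hoxc8. A correlation with this sum is therefore mainly one with Lep. Skeletal muscle markers varied most between depots: the sum of 14 genes was 32.6 and 14.1 CPM in Axl KO mice 1 and 2 and ran from 696 to 4449 CPM in the other mice, with a median of 696 CPM in Axl KO and 3471 CPM in WT mice. Axl KO mice 1 and 2 thus stand apart in muscle marker level, and the fold changes that moved by over 1.5 times without both (Acsl1, Acsl3 and Acot1) are given beside the members. In whole tissue, fewer cells of a type and less RNA per cell cannot be told apart.

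Among the members Acsl1 was by far the highest. Per length, as CPM per kb of annotated exon averaged over the 10 mice, Acsl1 stood at 338 ± 32.0 (SD), Acot13 at 131 ± 9.44 and Acot11 at 122 ± 36.3. Acot2 at 46.9 ± 5.16 and Acsl5 at 46.9 ± 22.5 formed a middle pair, followed by Acsl3 at 8.85 ± 0.819 and Acsl4 at 6.75 ± 0.457. Acot1 was far lower, at 0.904 ± 0.597 CPM per kb. Acot3 at 0.0345 and Acsl6 at 0.0307 CPM per kb were near 0. Within each mouse the order was the same for most neighbours, with the higher gene above the lower in 10 of 10 mice. The exceptions were Acot13 and Acot11, in this order in 7 of 10 mice, Acot2 and Acsl5, in this order in 7 of 10, and Acot3 and Acsl6, in this order in 5 of 10. These 3 pairs of neighbours did not differ beyond their spread. When lengths were taken from the longest annotated transcript instead of all exons, Acsl5 moved above Acot2 and Acsl6 above Acot3, and Acsl1 rose to 624 CPM per kb.

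Acsl1 (ENSMUSG00000018796, GRCm38 chromosome 8, 46471037 to 46536051, plus strand) supplied most ACSL transcript. Its levels were 3310, 4325, 3485, 3776 and 3385 CPM in Axl KO mice 1 to 5 and 3100, 3663, 3310, 3545 and 3523 CPM in WT mice 1 to 5. The groups overlapped, with Axl KO mice 2 and 4 above all WT mice and the other 3 inside the WT range. The fitted log2 fold change (Axl KO against WT) was 0.09 (SE 0.08), 0.03 without Axl KO mouse 2 and 0.05 without Axl KO mice 1 and 2.

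Acsl5 (ENSMUSG00000024981, GRCm38 chromosome 19, 55251938 to 55297720, plus strand) had the widest relative spread of the 4 synthetases in the fit, with a coefficient of variation of 49.2% in Axl KO and 24.7% in WT mice. It was measured at 430, 181, 133, 230 and 416 CPM in Axl KO mice 1 to 5 and at 219, 192, 107, 205 and 168 CPM in WT mice 1 to 5. Levels in Axl KO mice 1 and 5 stood far above all others, Axl KO mouse 4 was just above the WT range, and Axl KO mice 2 and 3 lay inside it. The means were 278 ± 137 CPM in Axl KO and 178 ± 43.9 CPM in WT mice (SD, n = 5 each), with a log2 fold change of 0.64 (SE 0.30) that fell to 0.43 without Axl KO mouse 1. Of its annotated exon bases, 8.31% overlap Zdhhc6 on the opposite strand, a gene with 216 to 393 counts per mouse, and whether strand was used in counting is not given in the sources used here.

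As a share of the summed ACSL level per length, Acsl1 held 82.7 ± 6.79% in Axl KO and 86.3 ± 2.42% in WT mice, and Acsl5 held 13.5 ± 6.58% and 9.64 ± 2.34% (SD, n = 5 each). The ranges overlapped for both genes. In Axl KO mice 1 and 5 the Acsl5 share was 20.99% and 20.1%, against at most 12.6% in any other mouse, and Acsl1 was down to 74.9% and 75.9%.

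**Figure D1:**
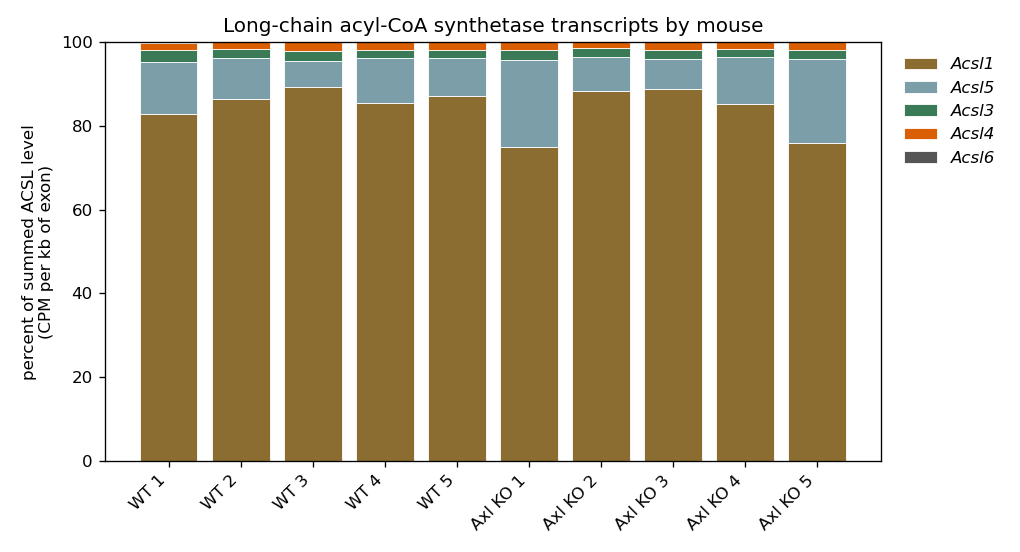
Share of each ACSL gene in the summed ACSL level of a mouse (vertical axis, percent, from CPM per kb of annotated exon), 1 stacked bar per mouse, WT left and Axl KO right. Acsl1 takes 74.9% to 89.4% in the 10 mice, and the Acsl5 segment is tallest in Axl KO mice 1 and 5; Acsl6 is too low to be seen.

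Acsl3 (ENSMUSG00000032883, GRCm38 chromosome 1, 78657825 to 78707743, plus strand) hardly differed between the genotypes. Its levels were 44.0, 43.3, 35.2, 34.2 and 40.6 CPM in Axl KO mice 1 to 5 and 41.1, 39.1, 37.0, 36.5 and 34.7 CPM in WT mice 1 to 5, with a log2 fold change of 0.06 (SE 0.08), which was -0.04 without Axl KO mice 1 and 2. The Axl KO mice surrounded the WT mice on both sides. Of the 50-base windows of its transcript, 4.05% also occur in another gene, in each case Utp14b, which overlaps Acsl3 on the same strand. Utp14b had 121 to 295 counts per mouse, against 212 to 370 for Acsl3.

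Acsl4 (ENSMUSG00000031278, GRCm38 chromosome X, 142317993 to 142390535, minus strand) had the smallest relative spread of the 4 synthetases in the fit, with a coefficient of variation of 8.05% in Axl KO and 4.66% in WT mice. It was measured at 38.7, 36.1, 34.6, 35.4 and 42.0 CPM in Axl KO mice 1 to 5 and at 36.7, 32.8, 36.8, 36.3 and 35.4 CPM in WT mice 1 to 5. The values of Axl KO mice 1 and 5 were above the WT range and the other 3 inside it. The log2 fold change was 0.07 (SE 0.07), and 0.02 without Axl KO mouse 5.

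Acsl6 (ENSMUSG00000020333, GRCm38 chromosome 11, 54303798 to 54364756, plus strand) had 24 counts in all 10 mice together. Axl KO mice 1 to 5 had 0, 0, 3, 1 and 1 counts and WT mice 1 to 5 had 8, 4, 4, 0 and 3 counts. The 5 Axl KO mice together had 5 counts and the 5 WT mice 19, of which WT mouse 1 gave 8, and the groups overlapped. Limits set by 3 counts were 0.317 to 0.565 CPM at the depths of these mice, and the difference was not tested.

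**Figure D2:**
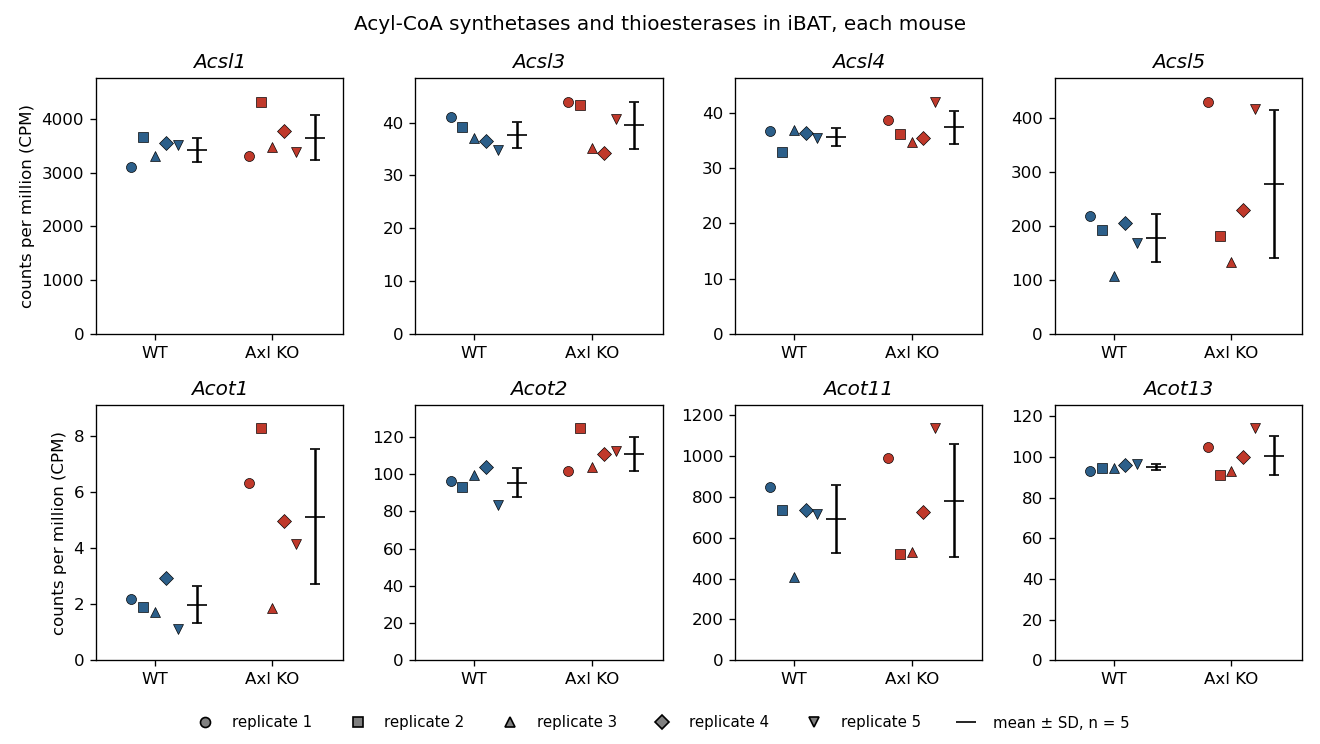
CPM (vertical axes, linear from 0) of the 8 members above the 1 CPM limit in WT (blue) and Axl KO (red) mice, 1 marker shape per replicate number, with the mean ± SD of each group in black. Every panel has overlapping groups; Acot1 is separated except for Axl KO mouse 3, and Acsl5 and Acot11 are highest in Axl KO mice 1 and 5.

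Of the thioesterases, Acot1, Acot2 and Acot3 are neighbours. With Acot4, Acot5 and Acot6 they form a row of 6 genes on the plus strand of chromosome 12 that spans 123.489 kb. Total counts over the 10 mice differed by orders of magnitude along it, with 7457 for Acot2, 243 for Acot1, 508 for Acot4, 9 for Acot3, 1 for Acot5 and 425 for Acot6.

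Acot1 (ENSMUSG00000072949, GRCm38 chromosome 12, 84009490 to 84018371) and Acot2 (ENSMUSG00000021226, chromosome 12, 83987861 to 83993873) are alike in much of their coding sequences. An alignment of these sequences had 1183 matching bases, 93.9% of the 1260 bases of Acot1, while that of Acot2 has 1362 bases. Of the 50-base windows of the Acot1 transcript, 23.7% are also present in Acot2. The longest run shared by the coding sequences, 273 bases inside the third and last exon of each gene, is printed because a read that lies within it cannot be told apart between the genes. It stands in capitals, with 10 flanking Acot1 bases on each side, at chr12:84017006-84017278 in Acot1 and at chr12:83992728-83993000 in Acot2 (GRCm38, plus strand, main coding transcripts of GENCODE M21).

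Acot1 and Acot2 shared run: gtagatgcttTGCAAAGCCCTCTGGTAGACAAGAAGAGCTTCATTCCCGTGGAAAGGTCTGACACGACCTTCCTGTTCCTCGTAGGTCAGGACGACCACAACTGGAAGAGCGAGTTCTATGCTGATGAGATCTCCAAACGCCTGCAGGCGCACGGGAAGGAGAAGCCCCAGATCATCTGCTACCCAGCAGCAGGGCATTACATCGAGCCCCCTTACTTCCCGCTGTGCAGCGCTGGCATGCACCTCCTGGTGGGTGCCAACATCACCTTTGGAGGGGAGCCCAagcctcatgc

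Acot1 had the largest fitted difference of the members at the lowest counts. It was measured at 6.33, 8.27, 1.87, 4.95 and 4.14 CPM in Axl KO mice 1 to 5 and at 2.18, 1.90, 1.73, 2.92 and 1.13 CPM in WT mice 1 to 5, from 9 to 55 counts per mouse. Of the Axl KO mice, 4 were above all WT mice and Axl KO mouse 3 was inside the WT range. The means were 5.11 ± 2.39 and 1.98 ± 0.655 CPM (SD, n = 5 each), with a log2 fold change of 1.38 (SE 0.36) that ranged from 1.13 to 1.61 as each mouse was left out. The highest Acot1 levels and the lowest muscle marker sums were both in Axl KO mice 1 and 2, and without these mice the log2 fold change was 0.88 (SE 0.36). Over the 10 mice the deviations of Acot1 from the genotype mean ran against the muscle sum with r = -0.56, against the macrophage sum with r = -0.74 and against the endothelial sum with r = -0.68 (Pearson, n = 10 mice). For the white adipocyte (mainly Lep), B and T cell, and Schwann cell sums r was -0.57, -0.55 and -0.54. The part of these cell types, or of Lep alone, in the difference was not tested.

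Acot2 moved in the same direction by less. Its levels were 101.5, 124.7, 103.9, 111.1 and 112.4 CPM in Axl KO mice 1 to 5 and 96.5, 93.1, 99.6, 104.0 and 83.7 CPM in WT mice 1 to 5. The groups overlapped only through WT mouse 4, which lay just above Axl KO mice 1 and 3. The log2 fold change was 0.22 (SE 0.07). Deviations of Acot2 ran against the B and T cell (r = -0.72), endothelial (-0.64), white adipocyte (mainly Lep, -0.56) and macrophage (-0.53) sums over the 10 mice. The part of these cell types, or of Lep alone, was not tested. Summing the pair, an alternative chosen after seeing the data that does not depend on how shared reads were assigned between Acot1 and Acot2, gave 115.8 ± 10.7 CPM in Axl KO and 97.3 ± 8.24 CPM in WT mice (SD, n = 5 each), a log2 ratio of 0.25. The share of Acot1 in this sum was 1.76% to 6.21% in Axl KO and 1.34% to 2.73% in WT mice.

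Acot3 (ENSMUSG00000021228, GRCm38 chromosome 12, 84052144 to 84060402) was at the detection limit. Axl KO mice 1 to 5 had 0, 2, 0, 1 and 0 counts and WT mice 1 to 5 had 0, 2, 2, 1 and 1 counts, 3 against 6 in all, so no fold is given.

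Acot11 (ENSMUSG00000034853, GRCm38 chromosome 4, 106744555 to 106804998, minus strand) was the thioesterase with the most counts. Its levels were 991, 520, 531, 728 and 1137 CPM in Axl KO mice 1 to 5 and 850, 737, 410, 737 and 719 CPM in WT mice 1 to 5. The highest levels were again in Axl KO mice 1 and 5, but Axl KO mice 2 and 3 were below 4 of the 5 WT mice. The log2 fold change was 0.18 (SE 0.23), and it depended on single mice, with 0.00 without Axl KO mouse 5 and 0.29 without Axl KO mouse 2.

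Acot13 (ENSMUSG00000006717, GRCm38 chromosome 13, 24817948 to 24831540, minus strand), encoded by a short transcript, was the second highest member per length. It was measured at 105.1, 90.9, 93.0, 99.9 and 114.2 CPM in Axl KO mice 1 to 5 and at 93.0, 94.8, 94.7, 96.1 and 96.5 CPM in WT mice 1 to 5. The WT mice lay close together, with an SD of 1.40 CPM against 9.45 CPM in Axl KO mice, and Axl KO mice lay on both sides of them. The log2 fold change was 0.08 (SE 0.06), and 0.03 without Axl KO mouse 5.

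All 8 members in the fit had a positive log2 fold change, from 0.06 to 1.38 with a median of 0.14, where 49.8% of the 13739 genes were positive and the median of all genes was -0.00059. The 2 members outside the fit had fewer counts in Axl KO than in WT mice (5 against 19 for Acsl6 and 3 against 6 for Acot3). Without Axl KO mice 1 and 2, 7 of the 8 were positive, Acsl3 being the exception. Sizes were uneven, with 4 members under 0.1 in size and 3 above 0.2 (Acot1, Acsl5 and Acot2). Acot1 alone reached a log2 fold change of 1, as did 0.167% of all genes. Of the members, 0 of 8 passed an adjusted p of 0.05 in edgeR, where 1 gene of 13739 did (0.00728%, Axl itself, and 0.0% in the direction of higher levels), and 0 in DESeq2, where 9 of 12937 genes with an adjusted p did (0.0696%). No member had groups that did not overlap, against 1.35% of all genes. Because the members were selected on this contrast, none of these counts is a test of the family.

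The members did not vary together as 1 block between mice of a genotype. The deviation of each mouse from the mean of its genotype, in log2 CPM with a prior count of 2, was correlated for the 28 pairs of the 8 members over the 10 mice. These correlations share libraries, depth and scaling and are a description. Of the 28 values of Pearson's r, 20 were positive, with a median of 0.29, and 1 was at or above 0.8.

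That pair was Acsl5 and Acot11, a synthetase and a thioesterase, with r = 0.95 (Spearman 0.94) over the 10 mice, r = 0.96 among the 5 Axl KO mice and r = 0.98 among the 5 WT mice. Without the 2 mice farthest from the median of Acsl5, Axl KO mouse 3 and WT mouse 3, r was 0.94 over 8 mice. Leaving out any single mouse gave r between 0.94 and 0.96. Both genes also ran with the brown adipocyte marker sum, with r = 0.64 for Acsl5 and r = 0.69 for Acot11, and against the total count of the library, with r = -0.59 and r = -0.52, and the part of either in the correlation was not tested.

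**Figure D3:**
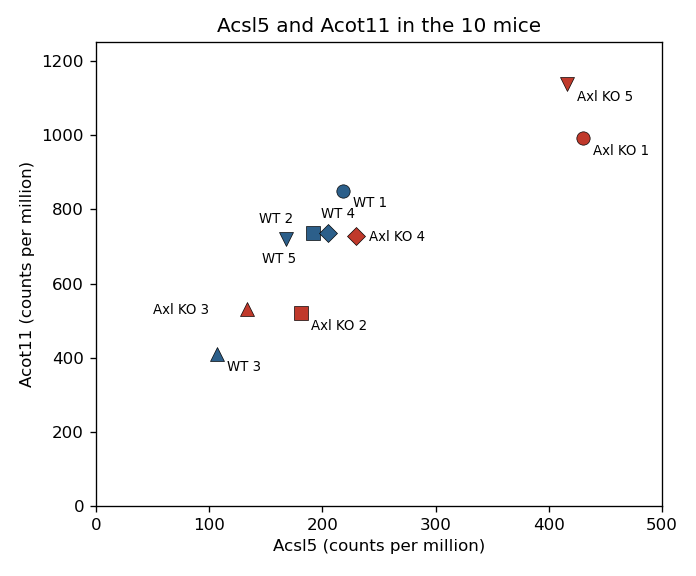
Acot11 (vertical axis, CPM) against Acsl5 (horizontal axis, CPM), 1 point per mouse, WT blue and Axl KO red, labelled by group and replicate number. Levels rise together from WT mouse 3 (107 and 410 CPM) to Axl KO mice 1 and 5 (430 and 991 CPM, 416 and 1137 CPM), with Acot11 at 737 CPM in WT mouse 2 and 520 CPM in Axl KO mouse 2 at similar Acsl5 levels (192 and 181 CPM).

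Acot13 varied with Acsl5 (r = 0.76), with Acot11 (0.75) and with Acsl4 (0.74) over all mice. Within the Axl KO mice r was 0.89, 0.98 and 0.90, while within the WT mice, whose Acot13 levels hardly spread, it was -0.14, -0.09 and -0.17. These genes also ran against the total count of the library, with r = -0.76 for Acsl4 and -0.53 for Acot13, and Acot13 ran with the brown adipocyte sum (r = 0.65); the part of either was not tested. Acot1 and Acot2 varied together (r = 0.65 over all mice, 0.54 in Axl KO and 0.89 in WT mice). Over all mice Acsl1 ran against Acsl4 (r = -0.55), Acot13 (-0.52), Acot11 (-0.44) and Acsl5 (-0.38). In the same order, r was -0.49, -0.69, -0.68 and -0.53 within the Axl KO mice. Within the WT mice it was -0.73, 0.76, 0.06 and 0.06, so only Acsl4 ran against Acsl1 in both genotypes. Against the muscle marker sum r was -0.52 for Acsl1 and for Acsl3. For Acsl3, r was larger in size with the endothelial (-0.64) and Schwann cell (-0.57) sums. Acsl4 ran against the white adipocyte sum, which is mainly Lep (-0.59), and Acot13 against the fibroblast sum (-0.55). The part of these cell types was not tested.

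**Figure D4:**
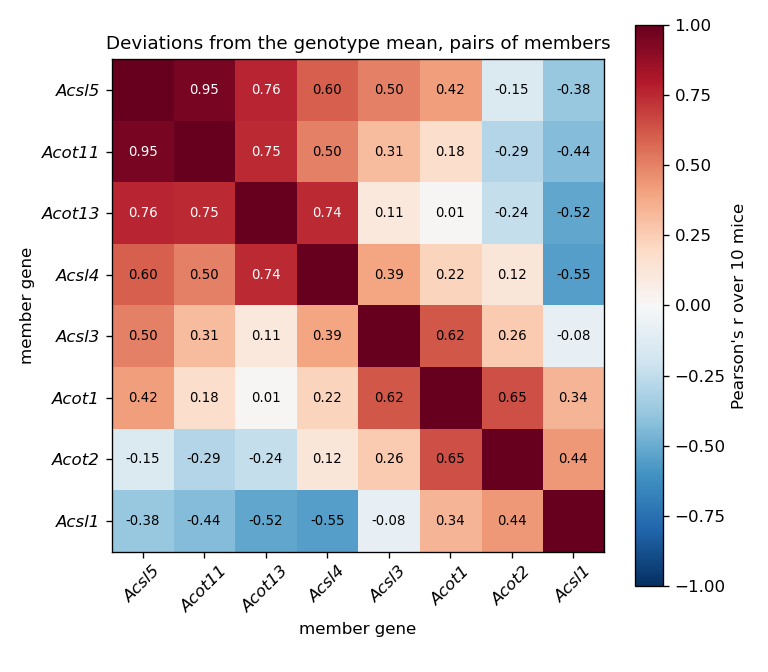
Pearson's r between members (both axes) over 10 mice, from deviations of log2 CPM from the genotype mean; red is positive and blue negative, and each cell prints its value. Over both genotypes together, Acsl5, Acot11, Acot13 and Acsl4 are positive with each other (0.50 to 0.95), and Acsl1 is negative with all 4 (-0.38 to -0.55). Within the WT mice alone the sign differs for several of these pairs.

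For each member with a mean of at least 10 CPM, the 3 genes most like it by the same measure were sought among 8650 genes. These are the highest of many values over only 10 mice. How high r would reach for unrelated genes picked in this way was not tested, so the lists are a description. Acsl5 was most like Mrpl36, a mitochondrial ribosomal protein gene (r = 0.99), Echdc1, an ethylmalonyl-CoA decarboxylase (0.98), and Als2cl (0.98). Acot11 was most like Aldoa, the glycolytic aldolase (0.98), Msra, a methionine sulfoxide reductase (0.98), and Fdps, which makes farnesyl diphosphate (0.97). For Acot13 they were Atp5g3, a subunit of ATP synthase (0.95), Zfp706 and Uck2. For Acsl1 they were Vps13d (0.96), Strn4 and Ddx17 (0.92 each). Acot2 was most like the stress sensor Atf6 (0.92), Zfand1 and Tstd2, Acsl3 most like Ipp (0.94), 1810009A15Rik and Ints2, and Acsl4 most like Mindy3, Zfp970 and Gm20696 (0.92, 0.92 and 0.91). No gene appeared under more than 1 member.

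Promoters are printed for Acsl5 and Acot11, the pair with the highest r, and for the neighbours Acot1 and Acot2, from 250 bases before to 50 bases after the RefSeq start (GRCm38.p6), for Acsl5 at chr19:55253119-55253418 (plus strand), Acot11 at chr4:106804958-106805257 (minus strand, the first of 2 starts), Acot1 at chr12:84009252-84009551 and Acot2 at chr12:83987611-83987910 (both plus strand). PPARs, nuclear receptors that control many genes of fatty acid use, bind DNA at a DR1 element, 2 copies of the half-site AGGTCA in the same direction with 1 base between them. Capitals mark the stretch closest to a DR1 on either strand, the first one found where several are equally close.

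Acsl5 promoter: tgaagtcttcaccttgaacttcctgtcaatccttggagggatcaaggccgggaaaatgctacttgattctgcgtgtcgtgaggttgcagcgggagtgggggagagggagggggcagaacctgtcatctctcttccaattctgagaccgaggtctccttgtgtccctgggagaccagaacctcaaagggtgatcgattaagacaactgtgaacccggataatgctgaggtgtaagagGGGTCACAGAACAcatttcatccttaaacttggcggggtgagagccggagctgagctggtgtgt
Acot11 promoter: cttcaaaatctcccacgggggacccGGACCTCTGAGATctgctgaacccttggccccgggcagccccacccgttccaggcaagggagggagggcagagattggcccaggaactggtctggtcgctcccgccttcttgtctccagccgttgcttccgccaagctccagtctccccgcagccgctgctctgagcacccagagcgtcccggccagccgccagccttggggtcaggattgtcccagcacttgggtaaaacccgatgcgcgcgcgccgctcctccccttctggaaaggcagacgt
Acot1 promoter: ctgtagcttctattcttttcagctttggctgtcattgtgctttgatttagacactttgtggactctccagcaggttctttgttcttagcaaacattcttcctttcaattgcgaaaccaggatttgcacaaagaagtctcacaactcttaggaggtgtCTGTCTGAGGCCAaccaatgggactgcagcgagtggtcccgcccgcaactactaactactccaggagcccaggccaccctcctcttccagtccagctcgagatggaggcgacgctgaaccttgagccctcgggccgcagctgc
Acot2 promoter: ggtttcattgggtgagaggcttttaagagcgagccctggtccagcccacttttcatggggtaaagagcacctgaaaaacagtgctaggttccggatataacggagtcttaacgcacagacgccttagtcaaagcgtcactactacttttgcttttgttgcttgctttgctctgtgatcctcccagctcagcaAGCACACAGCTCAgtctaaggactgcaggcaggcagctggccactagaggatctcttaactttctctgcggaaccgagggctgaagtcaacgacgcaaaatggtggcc

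The closest stretch differed from a DR1 at 3 of its 12 fixed bases in Acsl5, Acot11 and Acot2 and at 4 in Acot1. A stretch with at most 3 mismatches was in 24.6% of all 32851 windows, so it is common. Over the 14 promoter windows of the 9 members in the RefSeq table (none for Acot13), 0 had a DR1 with at most 2 mismatches, against 3.86% of all 32851 windows of this length. With so few windows, 0 at that share says little. The half-site AGGTCA alone, on either strand, was in 3 of the 14 windows (1 of Acsl6 and both overlapping windows of Acot3), 21.4% against 16.3% of all windows. These letters are thus not in the windows printed, which bears on no site elsewhere in the genes. The Acot1 and Acot2 promoters, unlike their coding sequences, matched at 155 of 300 aligned bases (51.7%), and their longest shared run was 9 bases.

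Other genes of the same pathways were not among the members and were tested in the fit over all genes. The other acyl-CoA synthetases had 12 of 19 genes in the fit. Of these, 10 had a positive and 2 a negative fold change, with a median log2 fold change of 0.16. By edgeR adjusted p 0 of 12 passed, and 0 in DESeq2. At an unadjusted p of 0.05, 2 were higher, Acss3 and Slc27a4 (log2 fold change 0.46, SE 0.20, and 0.16, SE 0.06), and 0 lower, where 4.54% of all genes were higher and 3.86% lower at that limit. The 4 highest per length were Aacs (acetoacetyl-CoA synthetase, 0.17, SE 0.23), the mitochondrial acetyl-CoA synthetase Acss1 (0.25, SE 0.15), Slc27a2 (0.37, SE 0.19) and Acsf3 (malonyl-CoA synthetase, 0.02, SE 0.08). The names Acss3 and Slc27a4 were chosen after their values were seen.

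The other acyl-CoA thioesterases had 10 of 17 genes in the fit, 8 with a positive and 2 with a negative fold change, with a median of 0.10. Of them 0 passed in edgeR, 0 in DESeq2 and 0 at an unadjusted p of 0.05. The 4 highest per length were Acot9, a mitochondrial thioesterase (0.05, SE 0.07), the lysosomal Ppt1 (0.06, SE 0.06) and Ppt2 (0.13, SE 0.10), and Acot7 (-0.02, SE 0.12). Acot4 and Acot6, the other neighbours of Acot1 above the limit, had log2 fold changes of 0.16 (SE 0.30) and 0.14 (SE 0.15).

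Acyl-CoA binding and carnitine transfer genes, some of which carry activated fatty acids into mitochondria, had 12 of 13 genes in the fit. Of these, 8 had a positive and 4 a negative fold change, with a median of 0.07. Of them 0 passed in edgeR and 0 in DESeq2, and at an unadjusted p of 0.05 there was 1, the carnitine carrier Slc25a20 (0.15, SE 0.07), named after its value was seen. The 4 highest per length were the acyl-CoA binding protein gene Dbi (0.05, SE 0.08), Cpt1b, the entry step of carnitine transfer (0.01, SE 0.06), Cpt2 (0.16, SE 0.09) and Crat (0.15, SE 0.07).

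PPAR target genes, a class to which several members are also known to belong, had 17 of the 21 genes reported here in the fit, 15 with a positive and 2 with a negative fold change, with a median of 0.09. The 4 highest per length were Acaa2 (-0.08, SE 0.08), Cidea (0.01, SE 0.08), Fabp3 (0.10, SE 0.10) and Acadl (0.04, SE 0.07).

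**Figure D5:**
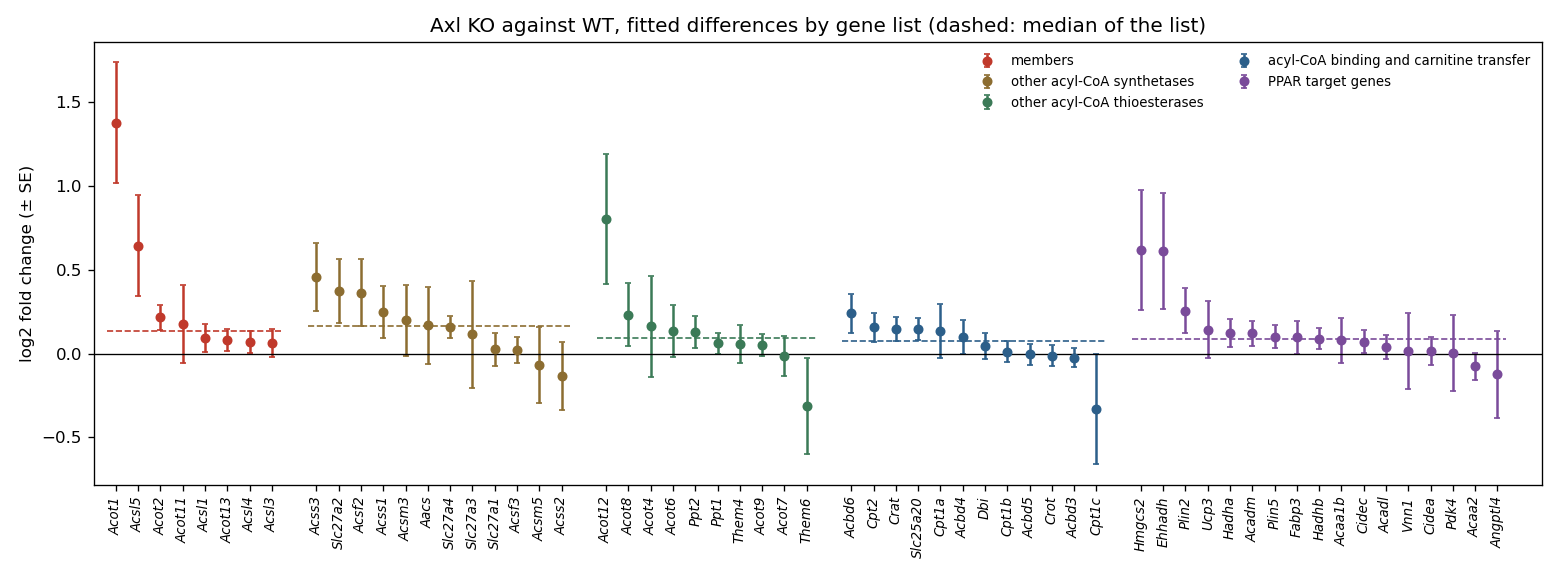
Fitted log2 fold change of Axl KO against WT (vertical axis, bars ± SE) for the 8 members in the fit and for the tested genes of 4 related lists (horizontal axis), with the median of each list as a dashed line. The medians are 0.14 for the members and 0.16, 0.10, 0.07 and 0.09 for the lists, and Acot1 at 1.38 stands highest.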

How the data were processed

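The values deposited by the authors are raw gene counts, whole numbers for each Ensembl identifier in a separate table for every mouse, not normalised. The submitters' processing notes name bcl2fastq, Trimmomatic 0.36, STAR 2.6.1c, DESeq2 and GRCm38.p5, and the study's methods name Trim Galore, hisat2 and Ensembl annotation of GRCm38; which was used for these tables, the counting tool, the strand setting and the handling of reads that match several genes are not given in the sources used here. The sample records describe polyA RNA and the methods rRNA depletion. Identifiers were named with GENCODE M21 (41163 of 41249 matched). Counts were fitted with edgeR 4.0.16 (R 4.3.3; TMM factors 0.977 to 1.04, quasi-likelihood test, genotype as the factor) on 13739 genes with a mean above 1 CPM, p-values were adjusted over all of them, and the biological coefficient of variation was 14.8%. DESeq2 1.42.0 was an alternative, beside RLE size factors, filterByExpr, no filter, a replicate block and each mouse left out. On simulated data with the means and library sizes of this comparison, edgeR recovered 82.6% of 195 genes changed 2-fold among 13602, with 9 false calls. The simulated spread followed the fitted trend with level and held no spread particular to a gene or to tissue composition. The rate therefore does not apply to genes that vary more than the trend. Each mouse is 1 replicate, since no pair of tables agreed within sampling noise (lowest chi-square 5.04 per gene). Replicate numbers did not pair the mice, since deviations of same-numbered mice correlated with r from -0.36 to 0.37. Levels are TMM-scaled CPM and, between genes, CPM per kb of annotated exons. Limits for 0 counts cover counting error only. Promoter sequences are from RefSeq (GRCm38.p6) and transcripts from GENCODE M21. The members and lists were chosen with earlier results of these data known. Named genes are the 10 members, Axl, in each other list the 4 highest genes per length and any gene with an adjusted p under 0.05 in either tool, the 3 genes most like each member of at least 10 CPM, and, outside this rule and chosen after their values were seen, Acss3, Slc27a4, Slc25a20, Acot4 and Acot6. 1 gene of the PPAR target list is not reported here and is left out of that list's counts and median, and for this list no count of calls is given.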

Additional observations from a re-analysis of the deposited data

Results flagged for a closer look

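In 18 groups of 5 mice, the 8 members in the fit and Axl in each genotype, the highest and lowest mouse were compared with their nearest neighbour, and 1 group had a gap above Dixon's 95% limit of 0.71 of the range. Axl in Axl KO mouse 4 was 0.437 CPM (3 counts), with the next mouse at 1.69 CPM, a gap of 0.80 of the range. About 1 group in 20 is picked out in this way by chance, or 0.9 of the 18. No member was picked out in either genotype.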

How the results depend on the processing

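Of 129 log2 fold changes of the 8 members in the fit under the alternatives run (RLE size factors, DESeq2, filterByExpr, no filter on low counts, the replicate block, each mouse left out and, chosen after seeing the data, the sum of Acot1 and Acot2 in place of Acot2 and Axl KO mice 1 and 2 both left out), 1 fell below 0 (Acsl3, -0.04 without Axl KO mice 1 and 2) and 0 moved by more than the spread between mice (SD). This spread is a wide limit. For Acsl1 the SD was 0.13 and the log2 fold change 0.09, so losing the whole difference would stay within it. The change of sign of Acsl3 did so too. Staying within the spread is thus no evidence that a value is stable. The medians of the 6 gene lists also stayed above 0 and within the spread of each list between mice, with the same limit. As each mouse was left out, these medians ranged from 0.05 to 0.11 for the member synthetases, 0.12 to 0.26 for the member thioesterases, 0.11 to 0.24 for the other synthetases, 0.04 to 0.11 for the other thioesterases, 0.03 to 0.10 for binding and carnitine transfer and 0.07 to 0.12 for PPAR targets. The number of genes called was 1 in edgeR and in each fit without a mouse, and 9 with DESeq2; the cause was not tested. The number of members with groups that did not overlap was 0 and ranged from 0 to 1, with 1 without Axl KO mouse 3 (Acot1) and 1 without WT mouse 4 (Acot2). In both cases the mouse left out was the one through which the groups overlapped. The share over all genes (1.35%) was counted with all 10 mice only, so these counts after removal have no background to be read against. With the longest transcript as length, the Acsl1 share of the ACSL level was 89.9% instead of 84.5% over the 10 mice, and 4 members changed rank, because the lengths differ. With the replicate number as a block, 1 gene was called, as without it, and the log2 fold change of Axl was -4.77; since the numbers did not pair the mice, the block is given here only. Depth limits Acsl6, Acot3 and Acot1, whose counts per mouse were 0 to 8, 0 to 2 and 9 to 55.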
